A study of Drosophila melanogaster with 8 samples.

Results

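Trichomes are the fine, non-sensory hairs that epidermal cells of the fly extend from their apical surface, and bristles are sensory organs whose shaft is the outgrowth of a specialized cell. Both are built on bundles of actin filaments that are assembled at the membrane, cross-linked and later covered by cuticle. In the epidermis, the transcription factor Shavenbaby, a product of the ovo locus, switches on the effector genes of the trichome. The 9 genes described here include this regulator (ovo), the bundling and shaft proteins of hairs and bristles (f, sn, sha, jv) and an unconventional myosin (ck). The others (mwh, trc, fry) limit the number of hairs or keep them from splitting and branching. The 9 genes were picked by name, with earlier results of these data known. All 9 were found among the 16845 gene identifiers of the count table.

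The counts came from poly-A RNA of terminalia, the genital and anal structures, of male D. melanogaster pupae of the genotype yw;+;+. Terminalia were taken at 24 hr after puparium formation (APF) or at 28 hr APF, and each of the 4 libraries of a stage came from a different pupa. No other genotype or treatment enters the comparison, which asks how expression differed between these stages. Because the tissue was sequenced in bulk, more cells of a type cannot be told apart from more RNA per cell, and hair-forming cells cannot be told apart from bristle cells.

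The libraries held between 24534188 and 35795240 counted reads. Of the genes that mark the terminalia, Abd-B, cad, dsx, Poxn, drm and en lay at or above 47.5 rpkm (reads per kilobase of exon, scaled to the counted reads of the library) in each library. Markers of other cells ranged from near 0 to high levels. Hemocyte markers did not exceed a mean of 3 rpkm at either stage, and all 6 muscle markers changed, 4 of them upward. The tracheal genes pio and verm were high and rose, from 265 to 389 and from 87.2 to 128 rpkm. In contrast, the tracheal regulator trh did not exceed 0.193 rpkm in any library. Of 11232 genes tested across the whole table, 32.9% differed between the stages (quasi-likelihood test of edgeR, p-values adjusted after Benjamini and Hochberg, threshold 0.05), 15.6% higher and 17.3% lower at 28 hr APF.

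All 9 genes passed the filter on low counts. Of them, 5 were called (55.6%, beside 32.9% of all tested genes), 4 higher and 1 lower at 28 hr APF. sha, mwh, f and jv rose, by between 1.49-fold and 2.61-fold. sn fell slightly, and this call was not stable. The regulator ovo, the myosin ck, the kinase gene trc and its partner fry were not called. In rpkm, the stages did not overlap for the 4 genes that rose and for sn; among all tested genes 13.2% did not overlap in the upward direction and 21.2% in the downward direction. When the change was tested against 1.5-fold, sha and mwh still passed, where 2.37% of all tested genes passed upward.

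**Figure D1:**
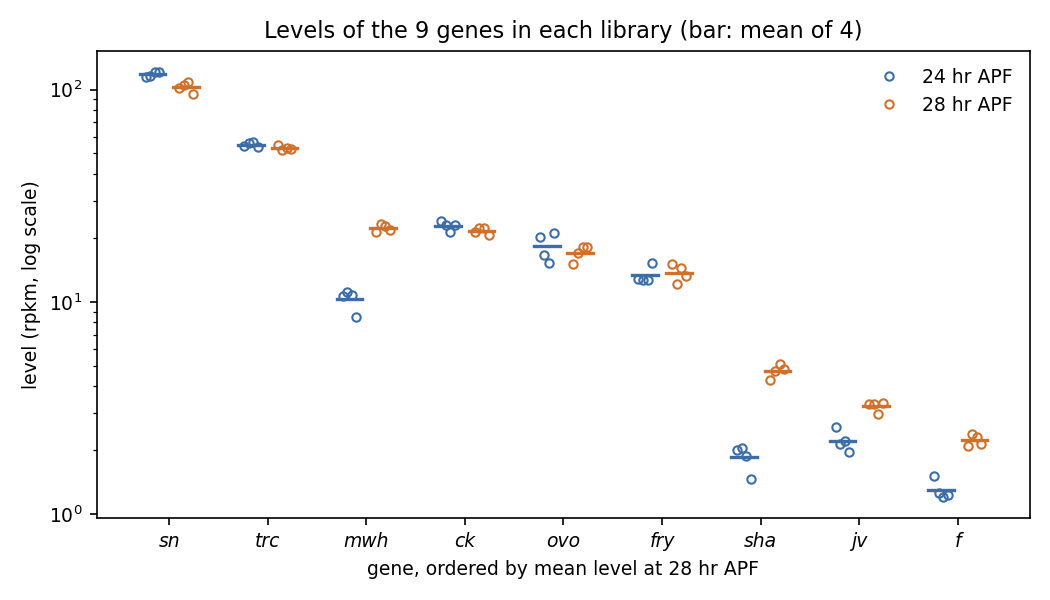
Level of each of the 9 genes in each library, in rpkm on a log axis, with genes ordered by their mean at 28 hr APF. Open circles are single libraries (blue, 24 hr APF; orange, 28 hr APF) and bars are means of 4. The circles of mwh, sha, jv and f separate by stage, from 10.3 to 22.3 rpkm for the mean of mwh, whereas those of trc, ck, ovo and fry overlap.

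The levels of the 9 genes spanned nearly 2 orders of magnitude. At 24 hr APF sn was the highest at 118 ± 3.75 rpkm (SD, n = 4) and f the lowest at 1.30 ± 0.143 rpkm (SD, n = 4). The order between them was trc, ck, ovo, fry, mwh, jv and sha, and only jv with sha, and sha with f, had ranges that overlapped between neighbors. At 28 hr APF mwh had moved up past fry and ovo, to 22.3 ± 0.910 rpkm (SD, n = 4), and sha had moved up past jv. At this stage mwh overlapped with ck, and ovo overlapped with fry. When the longest transcript set the gene length, f stood at 1.87 and 3.20 rpkm instead of 1.30 and 2.23 rpkm.

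ovo encodes zinc finger transcription factors, among them the epidermal activator Shavenbaby. It lies on the X chromosome of BDGP6 from 5048273 to 5070929 on the plus strand. Its level was 20.3, 16.7, 15.2 and 21.1 rpkm in replicates 1 to 4 at 24 hr APF, and 15.0, 16.9, 18.2 and 18.2 rpkm at 28 hr APF. The stages overlapped, and replicates 1 and 4 of 24 hr APF lay above all libraries of the later stage. The log2 fold change was -0.07, with a 95% interval from -0.32 to 0.17 (adjusted p = 0.661), so a rise of more than 1.13-fold lies outside this interval. It was the most variable of the 9 genes at 24 hr APF, with a coefficient of variation of 15.4%.

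The locus also makes proteins used in the germline, and the counts cover all 5 annotated transcripts together, so the epidermal form cannot be read apart. Most germline and testis markers were low: otu, whose transcription Ovo controls in the female germline, lay at or below 0.167 rpkm in every library, and the male germline gene bam at or below 0.830 rpkm. The phosphatase gene twe was higher and fell from 4.33 ± 0.165 to 2.98 ± 0.370 rpkm (SD, n = 4 each). The testis gene Mst87F, which did not pass the filter, had at most 0.116 rpkm at 24 hr APF and between 0 and 3.64 rpkm at 28 hr APF, and nos reached 1.05 rpkm. The germline gene vas was not analysed here.

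In the epidermis, short peptides from the tarsal-less transcript (tal, also called pri) convert Shavenbaby from a repressor into an activator, with the help of the ubiquitin ligase Ubr3 and the conjugating enzyme Ubc6. The transcript had 1.01 ± 0.436 rpkm at 24 hr APF and 1.58 ± 0.458 rpkm at 28 hr APF (SD, n = 4 each), and the difference did not pass the threshold (adjusted p = 0.146). Ubc6 was high, at 108 and 111 rpkm, and was not called either. Ubr3 rose by 0.19 on the log2 scale (SE 0.07, adjusted p = 0.0447), a call lost in 10 of 15 alternatives. The Sox factors SoxN and D, which act in the embryonic epidermis, moved apart: SoxN fell from 7.93 ± 0.591 to 6.08 ± 0.417 rpkm and D rose from 49.3 ± 3.43 to 63.4 ± 3.48 rpkm (SD, n = 4 each). Of the 5 distinct genes of this list, 2 rose, 1 fell and 2 were not called, a called share of 60.0% beside 32.9% of all tested genes.

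sha (shavenoid) is needed for actin to accumulate at the site where a trichome forms, and it is a target of Shavenbaby. It lies on arm 2R from 11324314 to 11336463. Its level was 2.01, 2.06, 1.87 and 1.47 rpkm in replicates 1 to 4 at 24 hr APF, and 4.28, 4.70, 5.07 and 4.84 rpkm at 28 hr APF. Every library of 28 hr APF lay above every library of 24 hr APF. The rise of 1.39 on the log2 scale (SE 0.11, adjusted p = 8.95e-06) was the largest of the 9 genes and exceeded that of 98.1% of all tested genes. Relative to ovo in the same library, sha had between 0.0696 and 0.123 of its rpkm at 24 hr APF and between 0.266 and 0.285 at 28 hr APF.

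f (forked) and sn (singed) cross-link the actin filaments of the bristle shaft. Forked is an ankyrin repeat protein that starts the bundles, and Singed is the fly fascin, which packs them. Their levels lay far apart. f, on the X chromosome from 17232942 to 17280964, had 1.52, 1.26, 1.21 and 1.23 rpkm in replicates 1 to 4 at 24 hr APF and 2.10, 2.39, 2.32 and 2.13 rpkm at 28 hr APF. It rose in each comparison of libraries between the stages, by 0.81 on the log2 scale (SE 0.09, adjusted p = 9.56e-05), on counts of 283 to 663 reads per library.

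sn, on the X chromosome from 7964024 to 7986601, had 114, 116, 121 and 121 rpkm in replicates 1 to 4 at 24 hr APF and 102, 105, 109 and 94.8 rpkm at 28 hr APF. It lay above 95.4% of all genes with a length at the earlier stage. Its log2 fold change was -0.17 (SE 0.05, adjusted p = 0.0377), a small decrease that passed the threshold in only 1 of the 8 fits that each left out a library, the one without replicate 3 of 28 hr APF (adjusted p = 0.00805). In a fit with replicate as a block the adjusted p was 0.0642. The separation of the stages in rpkm also rested on the scaling: in log2 CPM with normalization factors, replicate 3 of 28 hr APF lay at 0.05 and replicate 1 of 24 hr APF at 0.04 around the mean of the gene. The ratio of sn to f in rpkm was between 75.0 and 99.5 at 24 hr APF and between 43.9 and 48.5 at 28 hr APF.

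In the annotation, 3.39% of the exon bases of sn are shared with sws on the opposite strand, which stood at 6.34 and 6.42 rpkm. For f and ovo the shared part was 0.511% and 0.338%, and the other 6 genes shared no exon base with another gene.

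jv (javelin) encodes an actin-associated protein of the bristle shaft, and bristles of mutants swell near the tip. It lies on arm 3L from 6563197 to 6589479. Its level was 2.58, 2.13, 2.22 and 1.96 rpkm in replicates 1 to 4 at 24 hr APF and 3.31, 3.31, 2.97 and 3.35 rpkm at 28 hr APF. The stages did not overlap, and the gene rose by 0.57 on the log2 scale (SE 0.08, adjusted p = 5.19e-04). The gene sits within the bounds of MCU on the opposite strand. MCU was at 8.18 and 8.24 rpkm and was not called (log2 fold change 0.04, adjusted p = 0.692).

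ck (crinkled) is the fly myosin VIIA, which shapes hairs and bristles. It lies on arm 2L from 15044963 to 15057862 and had between 21.4 and 24.1 rpkm at 24 hr APF and between 20.6 and 22.4 rpkm at 28 hr APF. The stages overlapped. The log2 fold change was -0.04, with a 95% interval from -0.16 to 0.07 (adjusted p = 0.567).

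**Figure D2:**
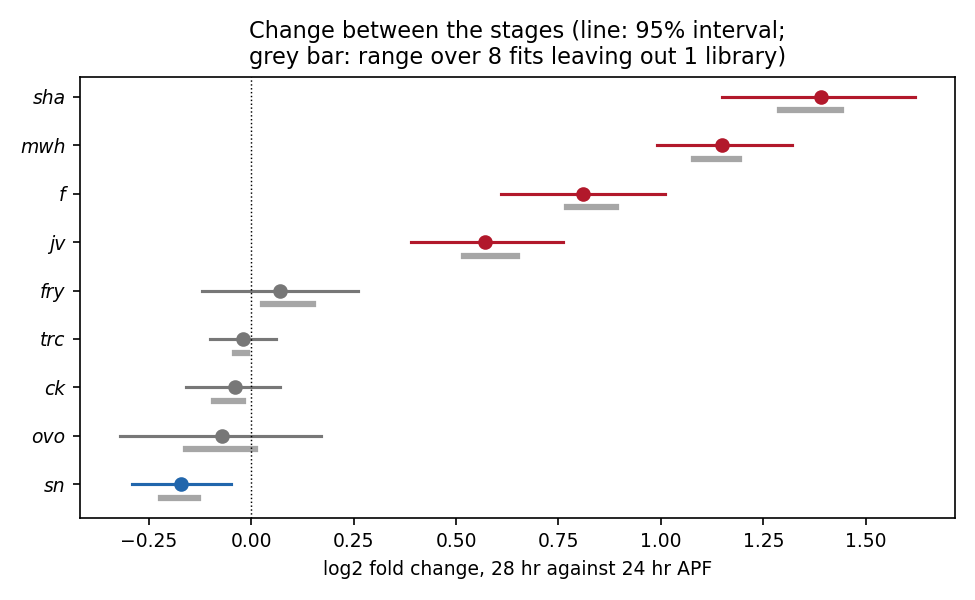
Log2 fold change of each gene between 28 hr and 24 hr APF, with dots for the fitted value, thin lines for the 95% interval and thick grey bars for the range over the 8 fits that each left out a library. Red marks genes called higher, blue lower and grey not called. sha, mwh, f and jv lie between 0.57 and 1.39, with intervals above 0, and the interval of ovo is the widest of those that cover 0.

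mwh (multiple wing hairs) encodes a formin-related protein that holds back actin assembly away from the site of the hair, and mutant wing cells form several hairs. It lies on arm 3L from 1200786 to 1232700. Its level was 10.7, 11.1, 10.8 and 8.52 rpkm in replicates 1 to 4 at 24 hr APF and 21.3, 23.3, 22.7 and 21.7 rpkm at 28 hr APF. The lowest library of 28 hr APF was well above the highest of 24 hr APF. The rise was 1.15 on the log2 scale (SE 0.07, adjusted p = 4.25e-06), and it exceeded that of 97.1% of all tested genes. Its rank by level rose from above 61.6% to above 75.7% of all genes with a length.

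trc, or tricornered, encodes an NDR-family kinase, and fry, or furry, encodes the large protein that its activity depends on. Loss of either gives split and branched hairs and bristles. trc, on arm 3L from 19830864 to 19834304, was the steadiest of the 9 genes, between 53.5 and 56.5 rpkm at 24 hr APF and between 51.8 and 55.0 rpkm at 28 hr APF. Its log2 fold change was -0.02 with the narrowest 95% interval, from -0.10 to 0.06 (adjusted p = 0.733). fry, on arm 3L from 9631834 to 9679103, had between 12.7 and 15.2 rpkm at 24 hr APF and between 12.2 and 15.1 rpkm at 28 hr APF. Its log2 fold change was 0.07, with a 95% interval from -0.12 to 0.26 (adjusted p = 0.564). Neither gene of the pair was called, and their stages overlapped.

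The list around trc and fry held Mob genes and Hippo pathway genes, and it was not limited to their direct partners. Of the 6 listed partners and relatives, including the coactivator gene mats (68.0 and 69.1 rpkm), Mob4 (162 and 152 rpkm) and the Hippo pathway kinase gene hpo, 5 were not called, and 1 of 6 (16.7%) was, beside 32.9% of all tested genes. The called gene was wts, a kinase gene of the same family as trc, which rose by 0.19 on the log2 scale (SE 0.06, adjusted p = 0.0300), a call lost in 8 of 15 alternatives.

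Relative to the mean, the spread between libraries of a stage was wider at 24 hr APF than at 28 hr APF for the 4 genes that rose. It was also wider for ovo, ck and trc, but not for sn and fry. The coefficient of variation went from 11.5% to 4.08% for mwh and from 11.7% to 5.54% for jv. Replicate 4 of 24 hr APF was the lowest of its stage for sha, mwh and jv, while the same library was the highest for ovo and fry. This library was the lowest of its stage for 51.6% of the 1753 genes called higher at 28 hr APF across the table. Without it the log2 fold changes of sha, mwh and jv were 1.29, 1.08 and 0.52, and each stayed past the threshold. What sets this library apart was not tested.

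**Figure D3:**
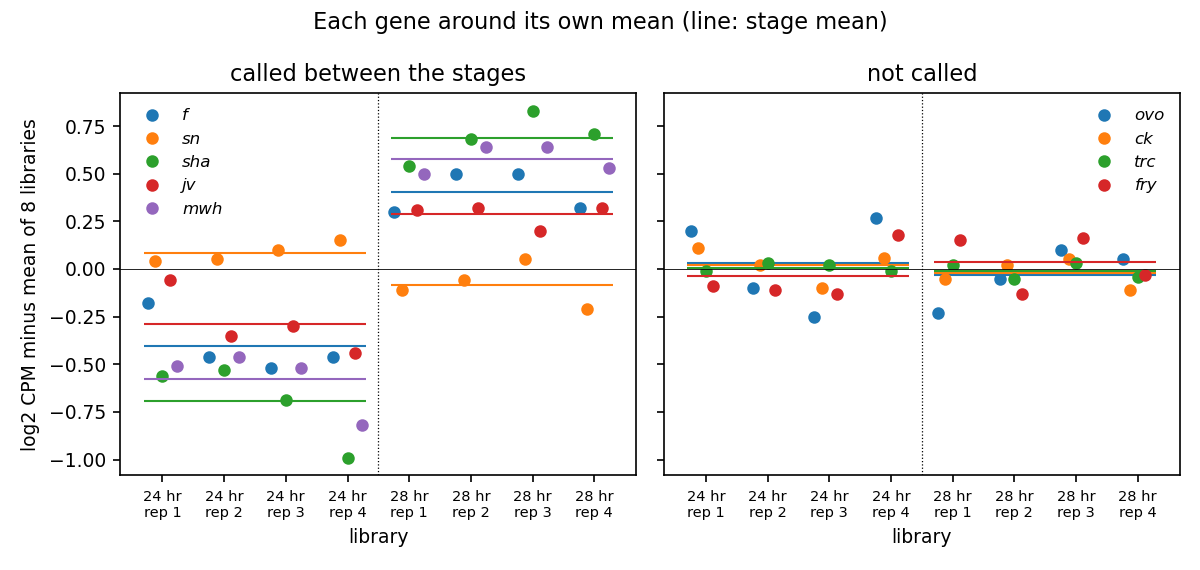
Log2 CPM of each gene in each library minus the mean of the gene over 8 libraries, with the called genes on the left and the others on the right. Points are libraries and lines are stage means. Replicate 4 of 24 hr APF is the lowest point of sha at -0.99 and of mwh at -0.82, and the highest point of ovo at 0.27.

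Genes whose profiles over the 8 libraries came closest to those of sha, mwh and f were looked up among 9633 genes with at least 1 rpkm at either stage, by the root mean square difference of centered log2 CPM. The nearest to sha were SP1029, St2 and CG7402, at 0.05 to 0.07 log2 units, and mwh ranked 11 among them at 0.13. The nearest to mwh were CG12828, Cyp311a1 and nompA. nompA encodes a ZP-domain protein that links sensory neurons to the cuticle, and it went from 7.31 ± 1.23 to 15.0 ± 1.13 rpkm (SD, n = 4 each). The nearest to f was nyo, which encodes a ZP-domain protein of the apical matrix, at 0.07 log2 units. By this measure, profiles lie close together where genes differ between the stages by a like amount.

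Trichomes are also shaped by ZP-domain proteins of the apical extracellular matrix, several of which are targets of Shavenbaby. Of 7 such genes tested, 3 rose, 2 fell and 2 were not called, a called share of 71.4% beside 32.9% of all tested genes. The most abundant, neo, rose from 418 ± 25.7 to 603 ± 47.5 rpkm, mey from 145 ± 16.0 to 283 ± 11.6 rpkm, and nyo from 67.1 ± 3.22 to 110 ± 8.68 rpkm (SD, n = 4 each). In contrast, dyl, which is needed for the cuticle of hairs and bristles, fell from 6.17 ± 0.232 to 2.80 ± 0.402 rpkm (SD, n = 4 each), or -1.11 on the log2 scale (SE 0.10, adjusted p = 3.21e-05). The median log2 fold change of the list was 0.04, beside 0.00 over all tested genes.

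The general actin machinery was followed in genes that build and turn over filaments. Of 22 genes for filament nucleation and turnover, 6 rose, 0 fell and 16 were not called. The called share was 27.3%, beside 32.9% of all tested genes called in either direction and 15.6% called higher. The median log2 fold change was 0.01, beside 0.00 over all tested genes. The most abundant, the cofilin gene tsr and the profilin gene chic, had 2236 and 2098 rpkm and 518 and 497 rpkm, and neither was called. All 7 subunit genes of the Arp2/3 complex that were tested were among those not called, with log2 fold changes between -0.08 and 0.01. The largest changes were in genes for other filament nucleators: the formin gene DAAM rose from 20.1 ± 4.08 to 51.1 ± 7.71 rpkm, spir from 5.53 ± 0.971 to 9.87 ± 0.513 rpkm, and the formin gene form3 from 1.76 ± 0.181 to 2.45 ± 0.171 rpkm (SD, n = 4 each).

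Among 17 tested genes for other bundlers, cross-linkers and myosins, 7 rose, 1 fell and 9 were not called, with a median log2 fold change of 0.16. The called share was 47.1%, beside 32.9% of all tested genes. The villin-like gene qua, at 11.6 ± 4.34 and 17.7 ± 0.981 rpkm (SD, n = 4 each), rose by 0.64 on the log2 scale, a call lost in 6 of 15 alternatives. The spectraplakin gene shot rose by 0.49 and beta-Spec by 0.42 on the log2 scale (SE 0.09 and 0.06). The most abundant of this list, the myosin light chain gene sqh (284 and 283 rpkm) and the myosin VI gene jar (106 and 111 rpkm), were not called. Of 6 actin genes, 66.7% were called, beside 32.9% of all tested genes. Act5C, Act42A and Act57B fell by 0.18, 0.13 and 0.38 on the log2 scale, Act87E rose by 0.24, and 2 were not called. The calls of Act87E and Act42A were lost in 9 and 4 of 15 alternatives. The actin genes are near-identical in sequence, and how reads with several alignments were counted is not stated, so their separate values are uncertain.

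Some muscle genes changed beside these actin genes. All 6 listed muscle markers were called, beside 32.9% of all tested genes. Of these markers, 4 were higher (among them Mlc2, from 20.4 to 42.3 rpkm, up, from 1.49 to 4.28 rpkm, and bt, from 0.546 to 1.42 rpkm) and 2 lower (Mef2, from 30.0 to 23.7 rpkm, and Mhc, which did not exceed 0.271 rpkm). Their summed level was between 425 and 544 CPM at 24 hr APF and between 539 and 624 CPM at 28 hr APF. Of 4 tracheal markers, 3 rose (75.0%, beside 15.6% of all tested genes called higher). These were pio, verm and serp, by 0.59, 0.59 and 0.81 on the log2 scale, while the tracheal regulator trh did not exceed 0.193 rpkm in any library. The summed level of this list was between 1184 and 1309.9 CPM at 24 hr APF and between 1792 and 1873 CPM at 28 hr APF. Most of its reads came from pio, with 24811 to 47208 per library, beside 5376 to 10128 for verm and 1858 to 4240 for serp. Whether these reads came from tracheal cells was not tested. Hemocyte markers summed to between 22.5 and 54.4 CPM at 24 hr APF and to between 27.7 and 36.2 CPM at 28 hr APF. The most abundant of them, srp (2.73 and 1.68 rpkm) and Pxn (2.29 and 2.67 rpkm), were not called over all libraries. srp was called only without replicate 4 of 24 hr APF, and Pxn only without replicate 3 of 24 hr APF. Fat body markers summed to between 34.8 and 133 CPM and to between 27.1 and 66.0 CPM, and their members moved differently. The larval serum protein gene Lsp1gamma fell from 13.3 ± 3.62 to 3.94 ± 0.846 rpkm (SD, n = 4 each), or -1.72 on the log2 scale (SE 0.21, adjusted p = 1.37e-04). Lsp2, between 2.20 and 35.6 rpkm at 24 hr APF and between 7.46 and 19.6 rpkm at 28 hr APF, was not called, but without replicate 3 of 24 hr APF its log2 fold change went from 0.07 to 1.44 (adjusted p = 0.0259). The part of these cells in the changes of DAAM, the actin genes and the 9 genes was not tested.

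Genes of the bristle lineage did not move one way. Of 15 genes tested, 6 rose, 4 fell and 5 were not called, a called share of 66.7% beside 32.9% of all tested genes. The summed level was between 472 and 552 CPM at 24 hr APF and between 554 and 608 CPM at 28 hr APF. The most abundant, the proneural gene sc (28.1 and 31.2 rpkm) and neur (32.7 and 32.5 rpkm), were not called. sens, which maintains the sensory precursor, fell from between 4.23 and 8.21 rpkm to between 0.482 and 1.70 rpkm. The precursor gene ase fell from 2.47 ± 0.255 to 1.07 ± 0.191 rpkm (SD, n = 4 each). ham, a determinant of cell fate in the lineage, fell from 6.91 ± 5.05 to 2.83 ± 0.359 rpkm (SD, n = 4 each). This call was lost in 7 of 15 alternatives, and without replicate 3 of 24 hr APF the log2 fold change went from -1.25 to -0.66. sv, the Pax gene of the shaft cell, had 4.34 ± 0.496 and 5.07 ± 0.438 rpkm (SD, n = 4 each) and did not pass the threshold (adjusted p = 0.0824). The 6 genes that rose were Su(H), pros, nompA, elav, nSyb and futsch, by 0.44, 0.44, 1.08, 0.27, 0.70 and 0.53 on the log2 scale. Besides sens, ase and ham, phyl fell, with a log2 fold change of -0.78. These 6 genes and phyl were named after their values were seen. The part of bristle cells in the changes of f, sn and jv was not tested.

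**Figure D4:**
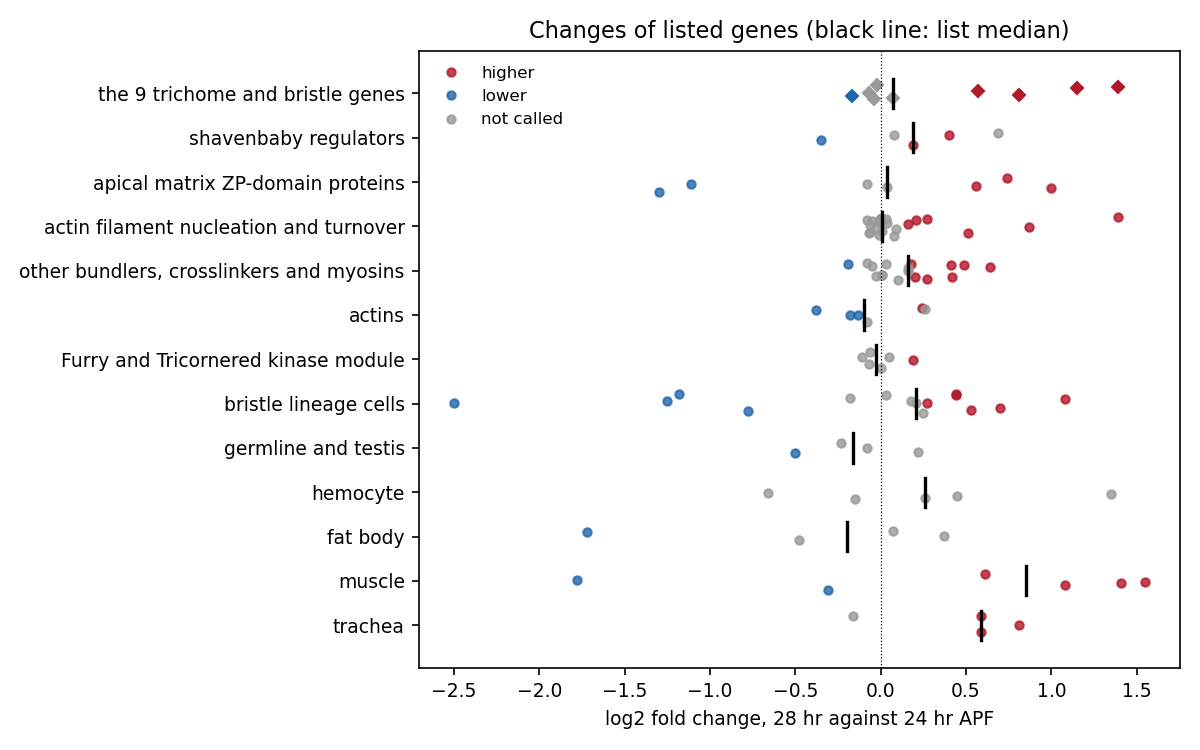
Log2 fold change between 28 hr and 24 hr APF of the 9 genes (diamonds) and of every tested gene of the surrounding lists (dots), with red for higher, blue for lower and grey for not called, and a black line for the list median. The actin nucleation list has its median at 0.01 and reaches 1.39 for DAAM, and the bristle lineage list reaches from -2.50 for sens to 1.08 for nompA.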

How the data were processed

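The authors aligned the reads to assembly dm3 with TopHat2 2.0.13, counted them in the unioned exons of FlyBase genes with bedtools, and deposited raw counts per gene and library, which were not normalized. Use of strand, overlapping genes and multiple alignments is not given in the sources used here.

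Names, lengths and coordinates came from the Ensembl annotation on BDGP6, matched by FlyBase identifier; 16431 of 16845 identifiers had a length, and no coordinates were converted. The rpkm of a gene was its count per kilobase of unioned exons, scaled to the counted reads of the library. Stages were compared with edgeR 4.0.16 in R 4.3.3 (quasi-likelihood test after TMM scaling, genes kept by filterByExpr at a minimum count of 10, p-values adjusted after Benjamini and Hochberg over all tested genes, threshold 0.05). Standard errors (SE) were derived from the fold change and its F statistic, and 95% intervals from the t distribution of that fit. The scripts were tested on simulated counts in which 200 genes differed by 1 on the log2 scale between the stages. Of these, 176 were recovered with the right sign, with 10 false calls among 11266 tested genes. The changed genes were drawn from those with at least 200 reads. Profiles used log2 CPM with a prior count of 2. Alternatives were other normalizations, no filter, DESeq2 1.42.0, a replicate block, a test against 1.5-fold, leaving out each library, and other lengths and library sizes for rpkm.

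The 9 genes and the lists were chosen with earlier results of these data known. Besides the 9 genes, the text names in each list the 3 called genes with the largest change and at least 1 rpkm, and the 2 most abundant. Further list genes (tal, Su(H), nompA, pros, elav, nSyb, futsch, phyl, otu, bam, hpo, nos, Mhc, trh, sv and the Arp2/3 genes) were named after their values were seen. Of 118 listed symbols 111 were matched; 4 tal identifiers with identical counts were counted as 1. No pair of libraries within a stage agreed within counting noise (lowest chi-square for a pair, divided by its degrees of freedom, 7.77). A further planned list of genes is not reported here.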

Additional observations from a re-analysis of the deposited data

Results flagged for a closer look

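Among 102 groups of 4 libraries (the 9 genes and the named genes of the lists at each stage), 8 held a library that stood far from the other 3 of its stage by Dixon's test at the 95% level. Chance gives about 1 in 20 groups. Of the 18 groups of the 9 genes, 4 were among them. At 24 hr APF, replicate 1 was highest for f (1.52 rpkm, the others between 1.21 and 1.26), and replicate 4 was lowest for mwh (8.52 rpkm, the others between 10.7 and 11.1) and highest for fry, at 15.2 rpkm with the others between 12.7 and 12.8. At 28 hr APF, replicate 3 was lowest for jv (2.97 rpkm, the others between 3.31 and 3.35). Without the library concerned, the log2 fold changes were 0.89 for f, 1.08 for mwh, 0.15 for fry and 0.59 for jv, and no call changed.

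Of the listed genes, DAAM was lowest in replicate 4 of 24 hr APF (14.0 rpkm, the others between 21.7 and 22.5), and Lsp2, a larval serum protein gene of the fat body, was highest in replicate 3 of 24 hr APF (35.6 rpkm, the others between 2.20 and 7.90). At 28 hr APF, Ubr3 (13.7 rpkm) was lowest in replicate 1, and verm was highest in replicate 2 (135 rpkm). What sets these libraries apart was not tested.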

How the results depend on the processing

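The calls of sha and mwh held under all 15 alternatives, with log2 fold changes from 1.29 to 1.44 and from 1.08 to 1.19, and those of f and jv under 14, from 0.77 to 0.89 and from 0.52 to 0.65. Tested against a fold change of 1.5, which is a stricter hypothesis, f (0.81, adjusted p = 0.0785), jv (0.57) and sn (-0.17) were not called. Of the 9 genes 2 remained, 2 higher and 0 lower. Of all 11232 tested genes 531 passed, 266 higher (2.37%) and 265 lower, and of the 101 tested listed genes 13 passed. sn kept its direction but was called in 1 of the 8 fits that left out a library, where its log2 fold change ranged from -0.22 to -0.13 and the number of genes called lower among the 9 was 0 or 1; the cause was not tested. ovo ranged from -0.16 to 0.01 in these fits, positive without replicate 4 of 24 hr APF, and was called in none of them. ck, trc and fry were called under no alternative.

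The sources used here do not say that replicate numbers pair the pupae. Deviations of same-numbered libraries from their stage correlated across genes at -0.16, 0.16, -0.22 and 0.14. Differently numbered libraries were not compared, so these values cannot show whether same-numbered libraries shared a batch. In the fit with a replicate block, 3175 genes were called, sn (-0.17, adjusted p = 0.0642) was not, 0 of the 9 genes were lower, and the calls of the other 8 genes held.

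Named list genes that changed sign lay near 0 or varied between libraries. With library totals, sqh was at -0.0047 and neur at -0.01. In fits that left out a library, neur ranged from -0.01 to 0.06 and Lsp2 from -0.27 to 1.44. Calls were gained by srp without replicate 4 of 24 hr APF (-0.87, adjusted p = 0.0381), and without replicate 3 of 24 hr APF by Pxn (0.37, adjusted p = 0.0166) and Lsp2 (1.44, adjusted p = 0.0259). A planned search of promoter motifs, and its alternative, were not run.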
